A study of Mus musculus with 12 samples.

Results

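The TRIM family (tripartite motif proteins) was followed through the response of a mouse macrophage cell line to lipopolysaccharide (LPS), in wild-type and Parp14 -/- cells. Its members were taken as the rows whose symbol is Trim, a number and at most 1 further letter, with 1 such symbol set aside, and whose deposited level averaged at least 0.5 CPM (reads of a gene scaled to a fixed library total of 1000000) over the 12 libraries. Of the 65 symbols of this form among 24421 gene symbols, 30 were members and 35 lay under the minimum, 11 of them with 0 reads in every library. The members were thus chosen by their mean measured level, which is given only as a description. Trim47 (mean 1.11 CPM) and Trim34a (1.27 CPM) lay just inside the minimum, and Trim34b (0.383 CPM) and Trim2 (0.335 CPM) just outside it. All 30 members passed the filter for testing, at least 1 CPM in at least 2 libraries, and 27 reached 1 CPM in all 12 libraries. Trim34a, Trim47 and Trim65 lay under 1 CPM in some LPS-treated libraries. Trim65 passed the filter only through groups without LPS, where it is high, so its lower levels with LPS are given without a test. It is included in the counts of lower members with LPS. Without the filter these counts were the same in WT cells (6 higher and 19 lower) and with Jak inhibitor (2 and 23). In Parp14 -/- cells they were 3 higher and 20 lower without the filter, and 4 and 21 with it.

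TRIM proteins are built from a RING domain, 1 or more B-box domains and a coiled coil, followed by a C-terminal region that differs between members and selects what they bind. The RING domain makes most of them ubiquitin ligases, and many tune the sensing of microbes by modifying sensors, adaptors and kinases of the Toll-like, RIG-I-like and cGAS-STING pathways. LPS, a component of the outer membrane of Gram-negative bacteria, acts on macrophages through TLR4. The cells then release interferon beta, which signals through Jak kinases and STAT factors to a second set of genes, some TRIM genes among them, many of which carry an interferon-stimulated response element (ISRE) near their start.

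The cells were RAW 264.7 macrophages, an established line labelled with strain BALB/c. In all, 6 groups of 2 libraries each were compared. In wild-type (WT) cells these were untreated, LPS for 2 h, Jak inhibitor, and LPS for 2 h with Jak inhibitor. In Parp14 -/- (KO) cells they were untreated and LPS for 2 h. PARP14, the protein targeted in KO cells, is a mono-ADP-ribosyltransferase. Neither the name and dose of the inhibitor nor the dose of LPS was stated in the labels, and the same held for the number of KO clones and the part of Parp14 that was removed. The study compared these groups to find the genes that depend on LPS, on Jak kinases and on Parp14.

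Gene reads numbered 35.9 M to 45.7 M per library (M, 1000000 reads). Parp14 itself stood at 76.4 and 99.7 CPM in untreated WT libraries against 10.0 and 11.97 CPM in untreated KO libraries. After LPS it stood at 314.8 and 419 CPM in WT and 34.9 and 40.5 CPM in KO libraries, so both genotypes matched their labels. Of 8 macrophage markers, 7 exceeded 1 CPM in every library (summed level 8459 to 13945 CPM), and Mertk stayed under 1 CPM. All 5 T and B lymphocyte markers and all 7 fibroblast, epithelial and endothelial markers stayed under 1 CPM in every library (summed levels at most 0.147 and 0.473 CPM). Fewer cells and less RNA per cell cannot be told apart in bulk libraries. No label names separate cultures for the 2 libraries of a group, so the p-values measure the spread between these libraries, which may be technical.

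Promoter windows from RefSeq (GRCm38.p6; 250 bases before to 50 after a transcript start) were found for 21 of the 30 members. The ISRE core, searched as GAAANNGAAA on both strands, was present in the windows of 5 of these 21 members (23.8%) and of 3.99% of 27025 genes. The 5 were Trim21, Trim34a, Trim12c, Trim30a and Trim26. Trim34a, Trim12c and Trim30a lie within a cluster of chromosome 7, so their matches may not be separate occurrences. The windows of the 5 are shown because all 5 stood lower in KO than in WT cells after LPS. Each window runs 5′ to 3′ along the gene's strand, with the ISRE core in capitals, read as GAAA first or, on the other strand, as TTTC first; in Trim21 and Trim26 a pair of matches overlaps. The Trim21 window is chr7:102565433-102565732 (minus strand), that of Trim34a chr7:104244207-104244506 (plus), that of Trim12c chr7:104353300-104353599 (minus), that of Trim30a chr7:104465144-104465443 (minus) and that of Trim26 chr17:36836896-36837195 (plus).
Trim21: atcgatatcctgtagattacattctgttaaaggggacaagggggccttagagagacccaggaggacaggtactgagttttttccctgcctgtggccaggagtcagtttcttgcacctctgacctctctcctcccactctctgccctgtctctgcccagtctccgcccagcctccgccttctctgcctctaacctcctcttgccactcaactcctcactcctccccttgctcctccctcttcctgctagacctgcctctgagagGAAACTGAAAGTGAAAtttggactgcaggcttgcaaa
Trim34a: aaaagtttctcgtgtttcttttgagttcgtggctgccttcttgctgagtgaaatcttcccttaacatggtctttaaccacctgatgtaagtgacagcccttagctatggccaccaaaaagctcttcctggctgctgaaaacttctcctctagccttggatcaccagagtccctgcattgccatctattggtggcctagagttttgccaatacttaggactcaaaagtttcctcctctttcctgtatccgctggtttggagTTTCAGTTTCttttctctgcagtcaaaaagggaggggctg
Trim12c: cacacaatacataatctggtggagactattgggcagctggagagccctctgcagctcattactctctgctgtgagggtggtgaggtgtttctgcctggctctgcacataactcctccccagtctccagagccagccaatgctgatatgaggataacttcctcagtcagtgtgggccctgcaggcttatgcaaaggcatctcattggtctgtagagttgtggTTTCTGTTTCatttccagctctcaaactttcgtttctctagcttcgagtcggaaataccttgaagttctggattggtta
Trim30a: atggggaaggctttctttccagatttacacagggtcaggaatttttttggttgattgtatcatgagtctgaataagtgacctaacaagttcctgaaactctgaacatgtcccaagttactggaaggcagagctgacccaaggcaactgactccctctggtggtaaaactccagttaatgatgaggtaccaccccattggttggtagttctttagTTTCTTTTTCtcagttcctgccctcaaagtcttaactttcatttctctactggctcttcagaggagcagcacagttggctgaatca
Trim26: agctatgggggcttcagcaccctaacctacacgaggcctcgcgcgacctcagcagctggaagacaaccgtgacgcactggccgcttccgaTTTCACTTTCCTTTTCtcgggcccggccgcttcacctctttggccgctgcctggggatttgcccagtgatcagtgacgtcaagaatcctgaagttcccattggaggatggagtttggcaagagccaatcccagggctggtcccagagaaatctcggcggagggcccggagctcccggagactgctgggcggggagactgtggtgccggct

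The match began 13 bases after the annotated start in Trim21, 10 after it in Trim34a, 29 before it in Trim12c, 36 before it in Trim30a and 160 before it in Trim26. A second Trim30a window (chr7:104446076-104446375, minus strand) held the same 10 letters, TTTCTTTTTC, 2 bases after its start. The GAS motif, searched as TTCNNNGAA, was present in 2 of the 21 members, Trim45 and Trim46 (9.52%, against 9.55% of genes). The NF-kB motif was present in 3, Trim13, Trim28 and Trim46 (14.3%, against 9.55% of genes). A match is a run of letters and does not show that a factor binds there.

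In untreated WT cells the family covered a wide range of levels. Per kilobase of merged exon, Trim28 was highest at 117 CPM per kb. Trim28 encodes KAP1, the corepressor recruited by KRAB zinc finger proteins. Next stood Trim35 (27.5 CPM per kb), Trim8 (23.5 CPM per kb) and Trim44 (23.3 CPM per kb). Trim59 followed at 22.7 CPM per kb. The libraries of Trim8, Trim44 and Trim59 overlapped, so their order is not resolved. Trim30a stood at 9.66, Trim26 at 7.64, Trim21 at 3.82 and Trim34a at 0.635 CPM per kb, and Trim46 was lowest at 0.419 CPM per kb. The TRIM genes with an ISRE core therefore lay in the middle and lower parts of the range.

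**Figure D1:**
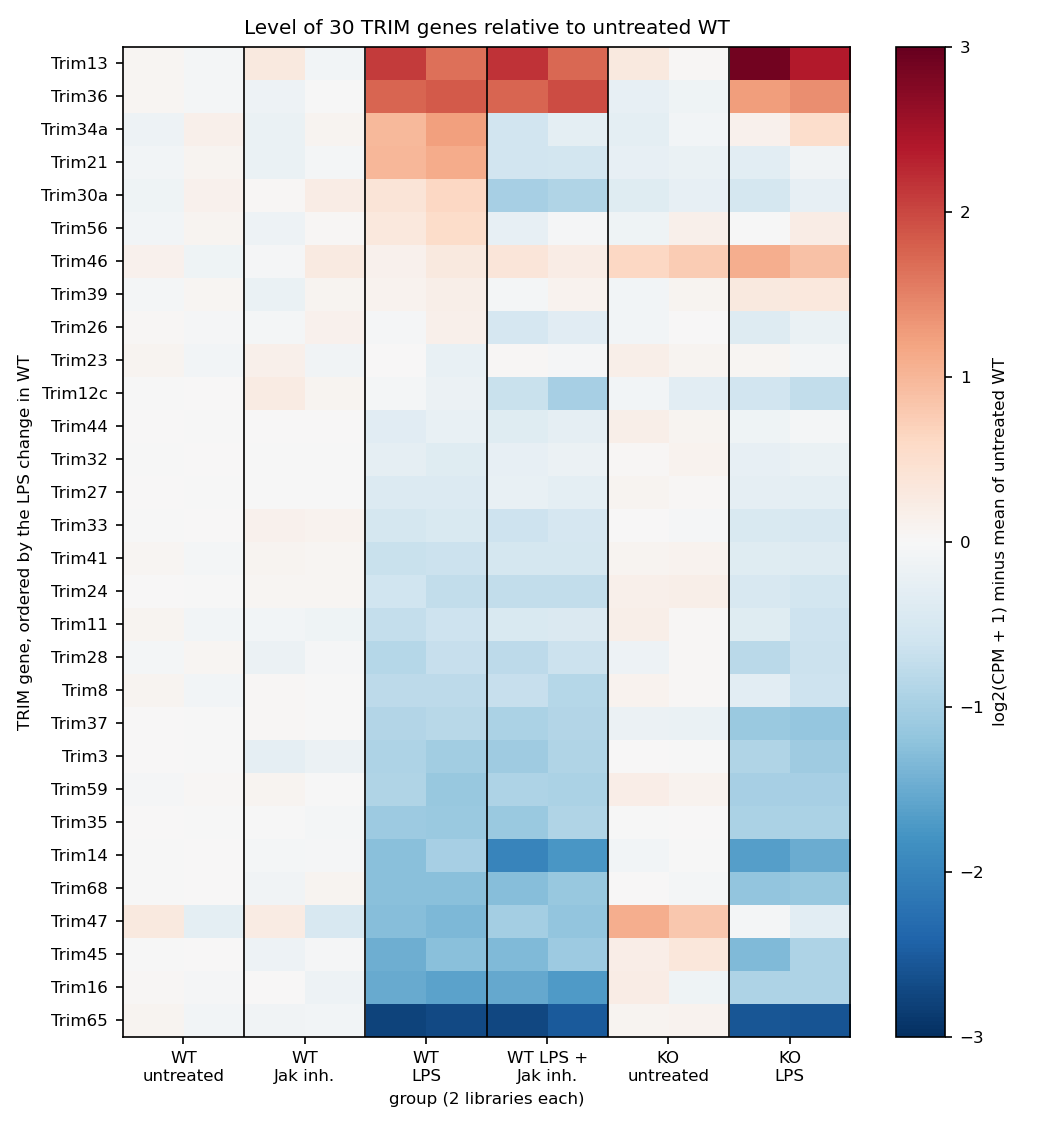
Each row is 1 of the 30 TRIM genes and each column 1 of the 12 libraries, in 6 groups; colour gives log2(CPM + 1) minus the mean of the 2 untreated WT libraries. Trim13 and Trim36 are red in all LPS-treated groups, Trim34a, Trim21 and Trim30a are red in WT with LPS and blue with the inhibitor added, and Trim65 is dark blue in all LPS-treated groups.

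LPS moved most of the family in WT cells, and more members fell than rose, as was also so over all tested genes. By limma on log2(CPM + 1), with Benjamini-Hochberg adjustment over 10899 genes and calls at adjusted p under 0.05, 6 of 30 members rose and 19 fell. Over all tested genes 13.7% were called higher and 53.6% lower, against 20.0% and 63.3% in the family. The median difference was -0.58 over the members and -0.30 over all tested genes. The level of both medians depends on the scaling. With each library rescaled by its median of ratios, 9 of the 30 members were higher and 16 lower, where 26.4% and 32.5% of all genes were, with a median of -0.29 over the members and -0.04 over all genes.

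The members that rose were Trim13, Trim36, Trim34a, Trim21, Trim30a and Trim56. Trim13, a ligase anchored in the endoplasmic reticulum (chromosome 14, 61598247 to 61605946, plus strand), stood at 4.44 and 4.05 CPM in untreated and 21.4 and 15.6 CPM in LPS-treated WT libraries. The difference of log2(CPM + 1) was 1.88 ± 0.22 (SE; limma adjusted p = 4.59e-05), a 4.35-fold ratio of the group means. Trim36, a ligase with a COS, fibronectin and SPRY region, stood at 6.95 and 6.40 CPM untreated and 24.8 and 26.4 CPM with LPS. Its difference was 1.79 ± 0.10 (limma adjusted p = 2.89e-07), a 3.83-fold ratio. For both genes the LPS libraries lay far above every untreated library, a separation that was not counted over all genes.

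Trim21, Trim30a and Trim34a carry the PRY-SPRY region, the C-terminal fold of the largest TRIM subfamily. TRIM21 is the cytosolic receptor for antibody-coated viruses. Its gene (chromosome 7, 102557921 to 102565486, minus strand) stood at 13.4 and 15.0 CPM untreated and 29.5 and 31.9 CPM with LPS in WT cells, a 2.16-fold ratio. The Trim21 difference was 1.06 ± 0.09 (limma adjusted p = 6.79e-06). Trim34a (chromosome 7, 104244457 to 104262234, plus strand) stood at 1.37 and 1.92 CPM untreated and 4.16 and 5.17 CPM with LPS, with a difference of 1.10 ± 0.18 (limma adjusted p = 0.00042). TRIM30a restrains Toll-like receptor signalling by promoting the breakdown of TAB2 and TAB3. Trim30a (chromosome 7, 104409025 to 104465193, minus strand) stood at 35.8 and 43.7 CPM untreated and 52.3 and 61.2 CPM with LPS, with a smaller difference of 0.51 ± 0.13 (limma adjusted p = 0.006). Trim56, a ligase of the cGAS-STING pathway, stood at 33.7 and 38.2 CPM untreated and 45.2 and 52.8 CPM with LPS (0.44 ± 0.14, limma adjusted p = 0.0168). In all 4 genes the LPS libraries lay above the untreated ones. The share of all genes with such a separation was not counted. The calls of Trim30a and Trim56 were lost without untreated WT replicate 1 (limma adjusted p = 0.0592 and 0.109) or WT LPS replicate 2 (0.0522 and 0.116).

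Trim47, Trim16 and Trim14 were among the 19 members called lower with LPS, a count that includes Trim65, given here without a test. Trim65, the ligase that activates the RNA sensor MDA5, stood at 9.58 and 8.57 CPM in untreated and 0.460 and 0.536 CPM in LPS-treated WT libraries, 18.2-fold lower (-2.75 on the log2(CPM + 1) scale). Trim65 overlaps Trim47 on the same strand (chromosome 11, 116121846 to 116131128 and 116105752 to 116127210), so reads in the shared stretch cannot be assigned to one of them. Trim47 stood at 2.69 and 1.42 CPM untreated and 0.241 and 0.171 CPM with LPS (-1.31 ± 0.25, limma adjusted p = 0.000995), from 163 reads before and 18 after. Trim16, which lacks a RING domain and acts in the clearance of damaged lysosomes, stood at 6.59 and 6.35 CPM untreated and 1.60 and 1.44 CPM with LPS (-1.57 ± 0.12, limma adjusted p = 2.62e-06). Trim14, an adaptor at the mitochondrial protein MAVS, stood at 57.2 and 58.6 CPM untreated and 23.7 and 28.6 CPM with LPS (-1.12 ± 0.11, limma adjusted p = 9.73e-06). Every LPS library lay under every untreated library in these genes, and the share of all genes with such a separation was not counted.

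Trim45 (-1.36), Trim68 (-1.26), Trim35 (-1.10) and Trim59 (-1.02) fell by more than 1 on the log2 scale as well. Trim68 (chromosome 7, 102677582 to 102687327, minus strand) is a neighbour of Trim21 and moved the other way, from 9.10 and 9.15 CPM untreated to 3.22 CPM in both LPS libraries. The 3 members with a PHD finger and bromodomain, Trim24, Trim28 and Trim33, which act on chromatin, all fell, with a median difference of -0.67. The 15 PRY-SPRY members, 9 called lower and 3 higher, had a like median of -0.66. Over all tested genes the median was -0.30, with 53.6% called lower. Trim28 stood at 470 and 505 CPM untreated and 270.8 and 299.9 CPM with LPS. Trim8 and Trim27, both regulators of cytokine signalling, fell by 0.78 and 0.40. Trim12c, Trim23, Trim26, Trim39 and Trim46 did not pass the test, but after rescaling by the median of ratios Trim26 (0.35, limma adjusted p = 0.0183), Trim39 (0.41, 0.00818) and Trim46 (0.40, 0.0336) were called higher. The falls of Trim27, Trim32 and Trim44 (-0.40, -0.32 and -0.28) were not called after rescaling by the median of ratios, where Trim27 stood at -0.11, Trim32 at -0.04 and Trim44 at 0.01.

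In KO cells LPS raised 4 members and lowered 21, where 13.9% of all genes were called higher and 52.7% lower. Trim13 rose from 5.42 and 4.34 CPM to 37.7 and 26.1 CPM (2.47 ± 0.22, limma adjusted p = 7.13e-06). Trim36 rose from 5.44 and 6.01 CPM to 17.2 and 19.2 CPM (1.51 ± 0.10, limma adjusted p = 8.29e-07). Trim34a rose from 1.15 and 1.49 CPM to 1.86 and 2.79 CPM (0.51 ± 0.18, limma adjusted p = 0.0312), and Trim39 by 0.30 (limma adjusted p = 0.0231). The Trim34a call was lost without untreated KO replicate 1 (difference of 0.40) or KO LPS replicate 2 (0.31), and without the filter (limma adjusted p = 0.0538). That of Trim39 was lost without untreated KO replicate 1 (0.23) or either KO LPS library (0.31 and 0.30). Trim21, Trim30a and Trim56, which rose in WT, stood at differences of 0.01, -0.08 and 0.10 in KO cells, with overlapping groups and adjusted p of at least 0.546. After rescaling, 7 members rose and 16 fell (26.7% and 33.1% of all genes), Trim21 (0.27, limma adjusted p = 0.0437) and Trim56 (0.37) were among the former, and Trim30a stood at 0.18.

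**Figure D2:**
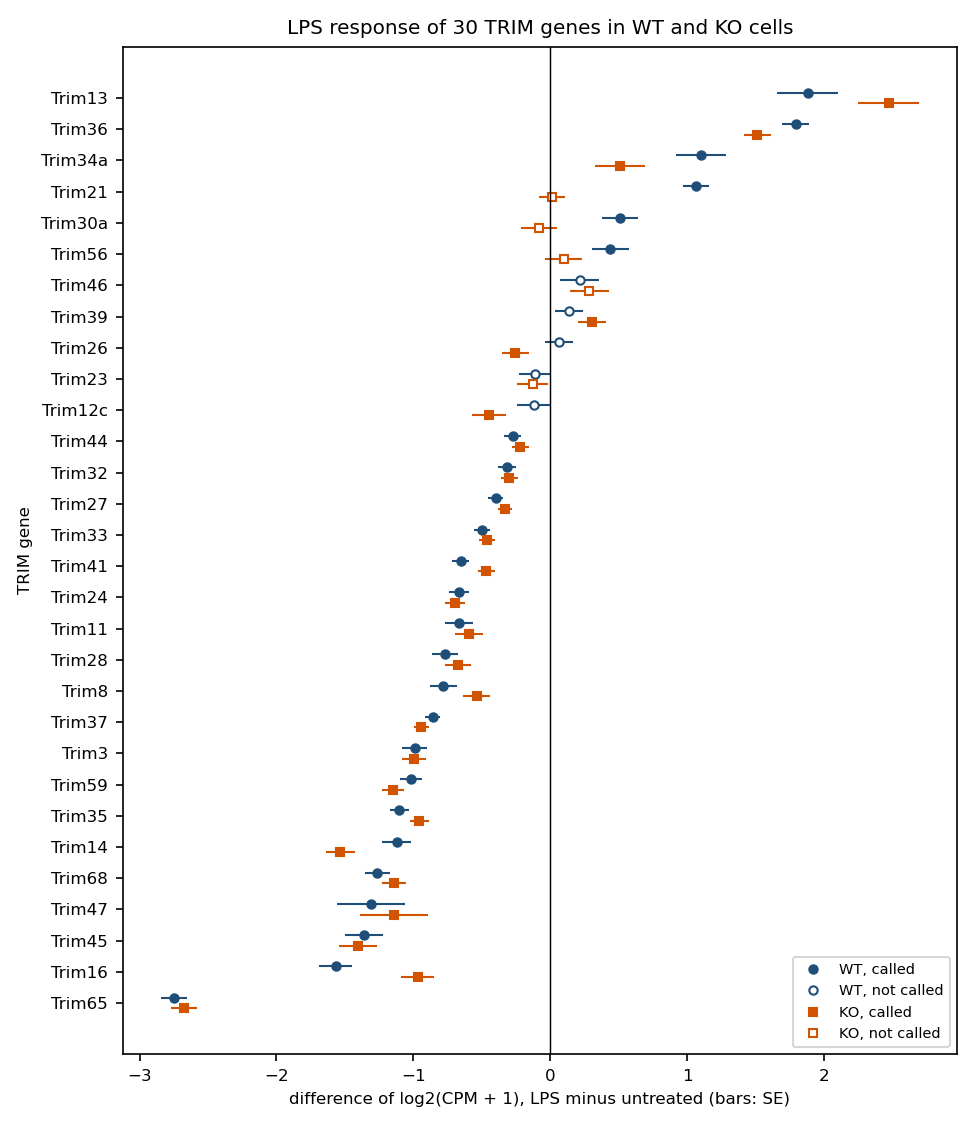
The difference of log2(CPM + 1) between LPS-treated and untreated libraries is plotted for each TRIM gene in WT (circles) and KO cells (squares), with bars of 1 SE; filled symbols passed the test at adjusted p under 0.05. Trim21 stands at 1.06 in WT and 0.01 in KO. Trim65, whose test is set aside because of the filter, stands at -2.75 and -2.68.

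Whether the response itself differed between genotypes was tested by an interaction term. It was called for Trim21 alone, with the KO response lower by 1.05 ± 0.13 (limma adjusted p = 0.0113), where 0.128% of all genes were called higher and 0.284% lower. At an unadjusted p under 0.05, where the share of all genes was not counted, there were 1 higher and 4 lower members. The call was lost in 4 of the 8 fits with 1 library left out: without untreated WT replicate 1 (limma adjusted p = 0.0679), WT LPS replicate 2 (0.0711), untreated KO replicate 1 (0.057) or replicate 2 (0.061). With the replicate number as a block, 7 members were called, where 1.67% of all genes were called higher and 2.12% lower. Trim21, Trim34a, Trim30a, Trim14 and Trim56 responded lower in KO (limma adjusted p of 2.54e-05, 0.0239, 0.00104, 0.0213 and 0.0139), and Trim13 and Trim16 responded higher (0.0183 and 0.023).

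After LPS, KO cells differed from WT cells in 12 of the 30 members, 8 lower and 4 higher, where 7.66% of all genes were called lower and 6.19% higher. The median over the members was 0.11, against 0.00 over all tested genes. The lower members were Trim21, Trim30a, Trim34a, Trim12c, Trim36, Trim14, Trim26 and Trim37. Trim21 was lowest relative to WT, at 11.3 and 13.1 CPM in KO against 29.5 and 31.9 CPM in WT libraries, 39.7% of the WT mean (-1.27 ± 0.09, limma adjusted p = 3.03e-05). Trim30a stood at 27.2 and 33.2 CPM in KO libraries, 53.2% of the WT mean (-0.89 ± 0.13, limma adjusted p = 0.00154). In both genes the KO libraries with LPS overlapped with the untreated KO libraries.

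Trim34a stood at 49.9% of the WT level (-0.78 ± 0.18, limma adjusted p = 0.0188). Trim12c, a mouse relative of human TRIM5 (chromosome 7, 104338754 to 104353362, minus strand), stood at 12.4 and 11.1 CPM in KO against 18.3 and 16.7 CPM in WT libraries (-0.54 ± 0.12, limma adjusted p = 0.0176). Trim14 stood at 17.7 and 19.9 CPM in KO against 23.7 and 28.6 CPM in WT libraries (-0.45 ± 0.11, limma adjusted p = 0.0186). Trim26, a ligase that acts on IRF3 in the nucleus (chromosome 17, 36837134 to 36859398, plus strand), stood at 40.2 and 45.6 CPM in KO against 51.4 and 58.4 CPM in WT libraries (-0.35 ± 0.10, limma adjusted p = 0.0469). These groups did not overlap, although each step was smaller than that of Trim21. The share of all genes without overlap was not counted. The Trim26 call was lost after rescaling (limma adjusted p = 0.06) and without the filter (limma adjusted p = 0.0726). Trim56 (-0.34, limma adjusted p = 0.15) was called lower only with the replicate block (limma adjusted p = 0.000131).

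Trim47, Trim46, Trim16 and Trim41 were higher in KO than in WT cells after LPS. Trim16 stood at 2.95 CPM in both KO libraries against 1.60 and 1.44 CPM in WT (0.65 ± 0.12, limma adjusted p = 0.0063). Trim46, a microtubule-associated ligase best known from neurons, stood at 4.51 and 3.72 CPM in KO against 1.84 and 2.14 CPM in WT (0.77 ± 0.14, limma adjusted p = 0.00581). Trim47 stood at 1.86 and 1.40 CPM in KO (1.12 ± 0.25, limma adjusted p = 0.0142). Trim13 stood at 37.7 and 26.1 CPM in KO against 21.4 and 15.6 CPM in WT, a 1.73-fold ratio that did not pass the test (0.75 ± 0.22, limma adjusted p = 0.0535). Trim13 was called after rescaling (limma adjusted p = 0.0439), and with the block Trim13, Trim8, Trim27 and Trim44 were called higher (2.05e-05, 0.00124, 0.0403 and 0.0129). The block counts were 8 higher and 9 lower members, where 14.9% of all genes were called higher and 16.7% lower.

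These calls rest on few libraries. How many of all genes were called in the fits with a library left out was not counted. Without WT LPS replicate 2, 3 members were called (Trim21, Trim30a and Trim46), and without KO LPS replicate 1, 5 (Trim21, Trim30a, Trim12c, Trim16 and Trim37). Trim21 and Trim30a were the only members of the 12 that were called with every library left out in turn and under every other setting tried. Each of the other 10 kept its direction and lost its call without at least 1 of the 4 LPS-treated libraries, WT LPS replicate 1, WT LPS replicate 2, KO LPS replicate 1 or KO LPS replicate 2. Their limma adjusted p in the lost fits ran from 0.0507 for Trim16 to 0.267 for Trim26.

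Before any treatment, KO cells were called higher for Trim46 and Trim47 and lower for no member, where 4.31% of all genes were called higher and 5.37% lower. At an unadjusted p under 0.05, where the share of all genes was not counted, there were 3 higher and 3 lower members. Trim46 stood at 2.98 and 3.40 CPM in untreated KO against 1.83 and 1.35 CPM in untreated WT libraries (0.70 ± 0.14, limma adjusted p = 0.0131). Trim47 stood at 5.36 and 4.26 CPM in KO against 2.69 and 1.42 CPM in WT (0.95 ± 0.25, limma adjusted p = 0.0395). Both were thus higher in KO libraries with and without LPS. The 2 comparisons between genotypes share no library. In untreated cells the Trim47 call was lost with a pseudocount of 0.25 (limma adjusted p = 0.0673), without the filter (limma adjusted p = 0.0701) and with edgeR (edgeR adjusted p = 0.0571). The Trim46 call was lost without untreated WT replicate 2 (limma adjusted p = 0.106) or untreated KO replicate 2 (0.0931), and that of Trim47 without either of these (0.269 and 0.0911) or untreated KO replicate 1 (0.227). With the block, where 10.9% of all genes were called higher and 13.7% lower, 6 members were called: Trim45 was added as higher (0.0452), and Trim30a (-0.30, 0.00185), Trim21 (-0.22, 0.0339) and Trim37 (-0.19, 0.00642) as lower.

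The Jak inhibitor lowered 5 of the 30 members in LPS-treated WT cells and raised none, where 1.04% of all genes were called lower and 0.0734% higher. The median over the members was 0.03, against 0.02 over all genes. At an unadjusted p under 0.05, where the share of all genes was not counted, there were 2 higher and 7 lower members. The 5 were Trim21, Trim34a, Trim30a, Trim14 and Trim12c. They belong to the PRY-SPRY class, which holds 15 of the 30 members and of which 10 were not called. This comparison and that of KO with WT cells share the WT LPS libraries, so their values are given side by side and their likeness is not a result.

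Trim21 stood at 9.25 and 9.33 CPM with LPS and inhibitor, 30.2% of the level with LPS alone (-1.62 ± 0.09, limma adjusted p = 3.89e-05), against 39.7% in KO cells. Trim34a stood at 0.766 and 1.14 CPM, 20.4% of the level with LPS alone (-1.54 ± 0.18, limma adjusted p = 0.00237), against 49.9% in KO cells. Trim30a stood at 19.5 and 20.6 CPM, 35.3% of the level with LPS alone (-1.45 ± 0.13, limma adjusted p = 0.000324), against 53.2% in KO cells. The libraries with LPS and inhibitor lay under all other libraries of these 3 genes, untreated ones included. The share of all genes with this order was not counted.

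Trim14 stood at 13.9 and 16.7 CPM with LPS and inhibitor against 23.7 and 28.6 CPM with LPS alone (-0.74 ± 0.11, limma adjusted p = 0.00739). Trim12c stood at 11.5 and 9.04 CPM against 18.3 and 16.7 CPM (-0.72 ± 0.12, limma adjusted p = 0.0222). Trim26 stood at 36.5 and 41.1 CPM (-0.49 ± 0.10, limma adjusted p = 0.0607) and Trim56 at 29.9 and 35.2 CPM (-0.58 ± 0.14, limma adjusted p = 0.131). Neither overlapped with LPS alone, but the share of all genes whose libraries separate in this way was not counted. Both were called lower with the replicate block (limma adjusted p = 0.000115 and 2.75e-06). The block gave 7 lower and 0 higher members, where 2.41% of all genes were called lower and 1.68% higher. Trim13 (22.7 and 16.4 CPM) and Trim36 (24.9 and 28.5 CPM) overlapped with LPS alone. The calls of Trim12c and Trim14 depended on single libraries. Trim12c lost its call without WT LPS replicate 1 or 2 (differences of -0.66 and -0.78) or LPS with inhibitor replicate 2 (-0.56). It also lost its call without the filter (limma adjusted p = 0.0595). Trim14 lost its call without WT LPS replicate 2 (-0.61) or LPS with inhibitor replicate 1 (-0.61).

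**Figure D3:**
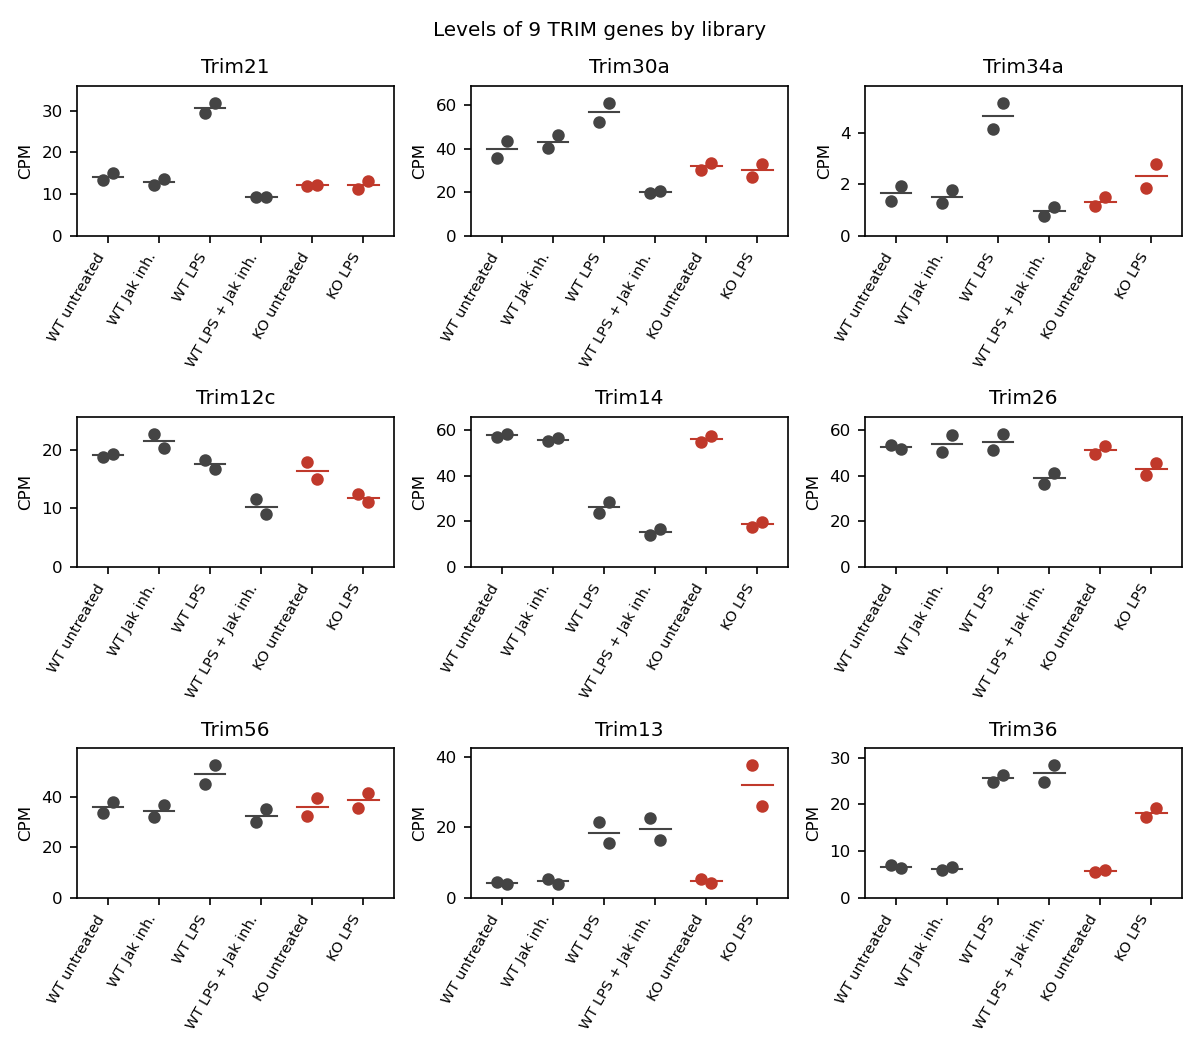
Points are single libraries and lines group means, in CPM on axes from 0, for 9 TRIM genes in WT (grey) and KO cells (red). In Trim21, Trim30a and Trim34a the 2 WT libraries with LPS stand above all others and the 2 with LPS and inhibitor below all others, whereas Trim13 and Trim36 stand high in every LPS-treated group.

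**Figure D4:**
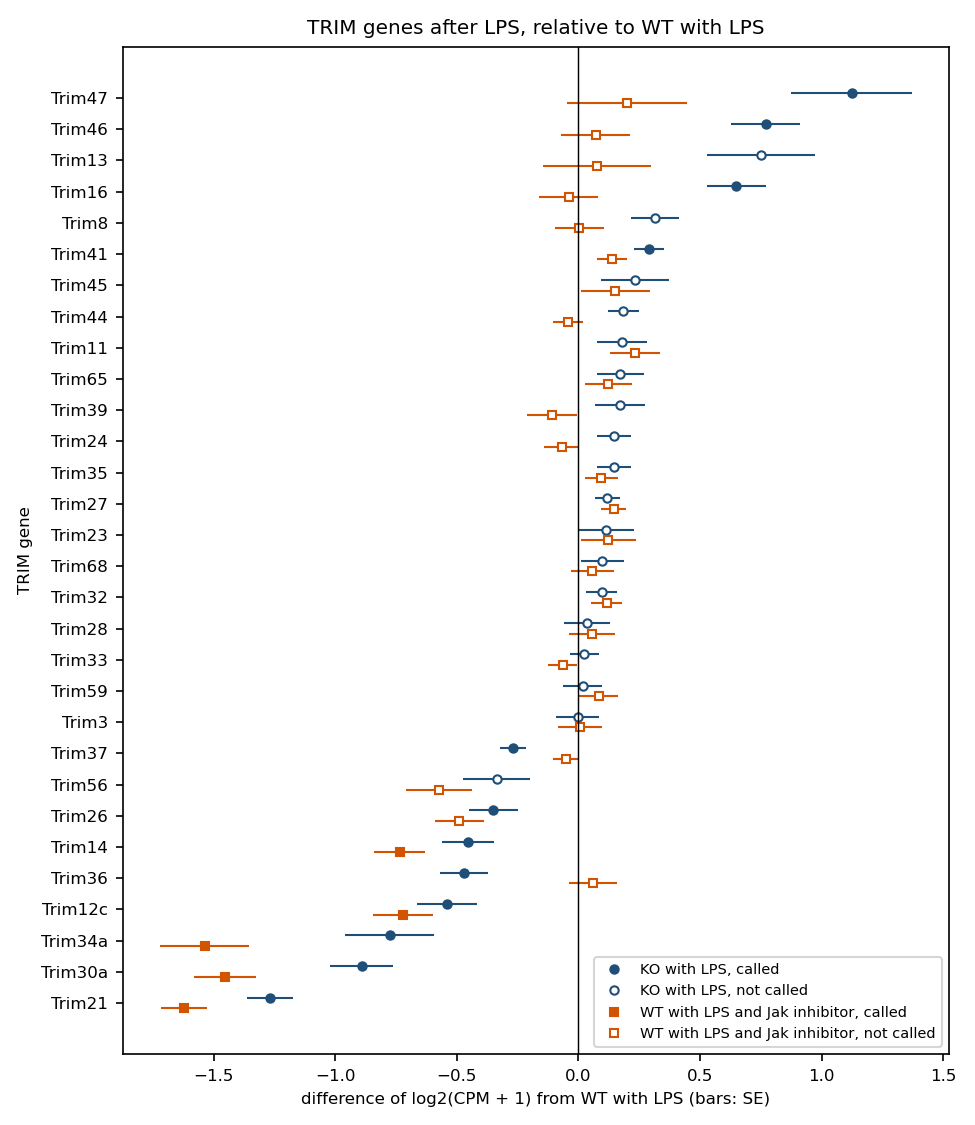
Differences of log2(CPM + 1) from LPS-treated WT cells are plotted for KO cells with LPS (circles) and WT cells with LPS and Jak inhibitor (squares), with bars of 1 SE and filled symbols for calls at adjusted p under 0.05; both share the WT LPS libraries. Trim21 stands at -1.27 and -1.62, while Trim36 stands at -0.47 in KO and 0.06 with the inhibitor.

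Without LPS, no member was called for the inhibitor by limma, edgeR or DESeq2, and 0% of all genes were called by limma. At an unadjusted p under 0.05, limma gave 1 member (Trim3, lower, chosen for mention after its values were seen), edgeR 1 and DESeq2 0. The share of all genes was not counted at this threshold. The inhibitor alone left Trim21 at 12.2 and 13.6 CPM and Trim30a at 40.3 and 46.2 CPM, overlapping with untreated cells.

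With the inhibitor present throughout, LPS raised only Trim13 and Trim36 and lowered 23 members, where 13.5% of all genes were called higher and 50.8% lower. Trim13 rose from 5.39 and 3.97 CPM to 22.7 and 16.4 CPM (1.85 ± 0.22, limma adjusted p = 5.49e-05). Trim36 rose from 5.88 and 6.54 CPM to 24.9 and 28.5 CPM (1.94 ± 0.10, limma adjusted p = 1.88e-07). Trim30a, which rose with LPS alone, fell from 40.3 and 46.2 CPM to 19.5 and 20.6 CPM (-1.07 ± 0.13, limma adjusted p = 5.53e-05), and Trim12c fell from 22.8 and 20.3 CPM to 11.5 and 9.04 CPM (-1.01 ± 0.12, limma adjusted p = 6.59e-05). Trim14 fell by 1.81 ± 0.11 (limma adjusted p = 4.58e-07). After rescaling, Trim30a (-0.82), Trim12c (-0.76) and Trim14 (-1.56) were still called lower. The falls of Trim21 (-0.43, limma adjusted p = 0.00266) and Trim26 (-0.47, 0.00241) were not called after rescaling (0.125 and 0.116), and Trim34a (-0.37, 0.0977) did not pass the test.

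The LPS responses with and without inhibitor were compared by a second interaction term. It was called for 3 members, all lower with the inhibitor, where 0.0184% of all genes were called higher and 0.569% lower. These were Trim30a (-1.58 ± 0.18, limma adjusted p = 0.00396), Trim21 (-1.49 ± 0.13, limma adjusted p = 0.00108) and Trim34a (-1.47 ± 0.26, limma adjusted p = 0.0422). At an unadjusted p under 0.05, where the share of all genes was not counted, there were 1 higher and 7 lower members. The Trim34a call was lost with any 1 of the 8 WT libraries left out (differences of -1.321 to -1.625). It was also lost with a pseudocount of 0.25 (limma adjusted p = 0.0571), without the filter (limma adjusted p = 0.0965) and with edgeR (edgeR adjusted p = 0.0723). With the block, where 1.22% of all genes were called higher and 1.7% lower, Trim12c, Trim14, Trim26 and Trim56 were added as lower (0.000224, 0.000409, 0.00226 and 0.000589).

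The promoter letters can be set beside these calls. In LPS-treated WT cells the inhibitor lowered 4 of the 5 members with an ISRE core and 0 of the 16 with a window but no core. Trim14, the remaining call, was among the 9 members with no window in the RefSeq table. Over all genes 1.04% were called lower. With the replicate block the inhibitor lowered 5 of the 5 and 1 of the 16, where 2.41% of all genes were called lower. KO cells were lower than WT cells after LPS for 5 of the 5 members with the core, for 1 of the 16 without it (Trim37) and for 2 of the 9 with no window (Trim14 and Trim36), where 7.66% of all genes were called lower. With the block, 5 of the 5 and 2 of the 16 were lower, where 16.7% of all genes were called lower. The windows and the calls were both known when they were set side by side, so these counts are a description. Of the 5 members with the core, Trim34a, Trim12c and Trim30a lie in the same cluster of chromosome 7 and may not be separate occurrences.

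Of the ISRE-bearing members, Trim34a, Trim12c and Trim30a lie within 1 cluster of chromosome 7 that also holds their close copies Trim34b, Trim30d, Trim30b and Trim12a. None of these copies reached the minimum level. Trim34b summed to 40 reads in untreated WT, 141 with LPS, 24 with LPS and inhibitor, 24 in untreated KO and 51 in KO with LPS. Trim30d summed to 22, 38, 10, 17 and 11 reads in the same groups. Alignments without a unique position made up 28.6% to 32.1% of the counted total in WT and 33.2% to 34.9% in KO libraries, and reads from near-identical copies can be lost among them or split. The part of this difference in the cluster's values was not tested. The kit and notes give no strand, so Trim14 cannot be told apart from its antisense partner Nans, nor Trim46 from Krtcap2, Trim28 from Zbtb45, Trim41 from Rack1 or Trim13 from Dleu2 where they overlap.

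TRIM proteins carried under other symbols gave 3 tested genes of 4 listed. Pml, the organiser of nuclear bodies, averaged 41.6 ± 0.552 CPM (SD, n = 2) in untreated WT, 26.9 ± 6.18 CPM with LPS and 8.57 ± 1.40 CPM with LPS and inhibitor (-1.54 against LPS alone, limma adjusted p = 0.0024). Mefv, which encodes pyrin, stood at 0.289 ± 0.122 CPM untreated, 3.25 ± 0.0802 CPM with LPS and 2.73 ± 0.129 CPM with LPS and inhibitor. It passed the filter only through groups with LPS, so its values are given without a test. Mid1, a microtubule-binding ligase, stood at 8.28 ± 0.235 CPM untreated and 6.90 ± 0.718 CPM with LPS and did not pass the test.

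Other parts of the machinery were read from lists. Of 15 ubiquitin-conjugating enzymes, 3 rose and 3 fell with LPS in WT cells, where 13.7% of all genes were called higher and 53.6% lower. After rescaling 10 rose and 0 fell, where 26.4% and 32.5% of all genes were called, so the enzymes' direction depends on the scaling. In LPS-treated cells, 1 of the 15 was lower in KO than in WT, where 7.66% of all genes were called lower. It was Ube2l6, the enzyme that also charges ISG15 (-0.59, limma adjusted p = 0.0097). Of 24 sensing partners and substrates, 11 rose and 6 fell with LPS in WT cells (15 and 5 after rescaling), where 13.7% of all genes were called higher and 53.6% lower (26.4% and 32.5% after rescaling). In KO cells with LPS 7 of these 24 were lower and 0 higher, where 7.66% of all genes were called lower and 6.19% higher. Among the 7 were Zbp1 (-1.20), Irf7 (-1.18), Ddx58 (-1.15) and Dhx58 (-0.91). With the inhibitor 5 of the 24 were lower and 0 higher, among them Ddx58 (-1.89) and Irf7 (-1.78), where 1.04% of all genes were called lower and 0.0734% higher.

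Of 35 interferon-induced genes of other families, 29 rose and 0 fell with LPS in WT cells (median 1.47), against 6 and 19 of the 30 TRIM members. Over all tested genes 13.7% were called higher and 53.6% lower. In KO cells with LPS 27 of the 35 were lower than in WT and 0 higher (median -1.10), where 7.66% of all genes were called lower and 6.19% higher. Rsad2, which encodes the antiviral enzyme viperin, fell most (-2.45). With the inhibitor 28 were lower and 0 higher (median -1.44), led by Mx2 (-3.40), where 1.04% of all genes were called lower and 0.0734% higher. The corresponding TRIM medians were 0.11 and 0.03, so the falls in the TRIM family lay in a subset of its members. These lists were chosen with the results known, and their counts are no independent evidence of a direction. Any listed gene that passed the filter only through groups where it is high stayed in these counts.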

How the data were processed

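mRNA of 12 libraries was sequenced after a TruSeq RNA preparation, per the labels' protocols. The submitters' processing notes name TopHat2 2.1.0, HTSeq and edgeR with mm10/GRCm38; the sources used here give no other settings, strand included. The deposited CPM were scaled by the authors to a total that includes 5 summary lines, which name no gene. Genes took 58.9% to 64.1% of that total, and CPM were rescaled here to each library's gene reads. Steps of the CPM values gave whole reads for 100% of values (tolerance 0.02 reads). In the same table, 4 further columns of per-sample values were not used.

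Groups came from the labels. Comparisons used limma 3.58.1 (R version 4.3.3), applied with a mean-variance trend to log2 values of CPM plus a pseudocount of 1, 6 group means, all 12 libraries (6 residual degrees of freedom), two-sided, for the 10899 genes that reached 1 CPM in 2 or more libraries, Benjamini-Hochberg adjusted. Fold ratios and percentages are of CPM means. Differences of log2(CPM + 1) understate the change of low genes. Alternatives were a pseudocount of 0.25, no filter or 5 CPM, scaling by the median of ratios, the deposited scaling, a replicate block, edgeR 4.0.16 and DESeq2 1.42.0 on recovered reads, and leaving out each library; a group left with 1 library is assumed to vary like the others. The scripts were tested on simulated data. Same-numbered libraries deviated together in all 15 group pairs (correlation 0.468 to 0.737 over 10899 genes). The numbers were treated as pairing the libraries only in the replicate block. The main fit and its p-values leave this pairing out. The labels name no shared day or culture. Gene positions are from GENCODE M21 (GRCm38).

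Members and lists were chosen with earlier results of these data known. Any member could be named, full statistics were kept to called members with the largest changes and a set followed throughout, and up to 4 called genes were named per further list.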

Additional observations from a re-analysis of the deposited data

Results flagged for a closer look

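For 4 results, an interaction term for a difference of LPS response between conditions was called in the main fit. The Trim21 response was lower in KO than in WT cells (difference of log2 changes -1.05). With the Jak inhibitor, the LPS responses of Trim21 (-1.49), Trim30a (-1.58) and Trim34a (-1.47) were lower than without it. Both terms use the untreated and LPS-treated WT libraries. The genotype call of Trim21 was lost in some fits with 1 library left out. The Trim34a call was lost with any WT library left out, with the smaller pseudocount, without the filter and with edgeR.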

How the results depend on the processing

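Of 98 calls of a member in a comparison, those of Trim65 with LPS included, 62 kept direction and call under every setting. Over 1180 recomputed values, 17 reversed and 105 lost the call. The deposited scaling and the replicate block lost none. Shares of all genes were not counted with 1 library left out, another pseudocount or filter, the deposited scaling, edgeR or DESeq2. The counts from those fits describe the members only. With the replicate block the count of called members rose from 2 to 6 for untreated KO against WT, from 1 to 7 for the genotype interaction and from 3 to 7 for the inhibitor interaction. The count for untreated KO against WT was 1 with a pseudocount of 0.25, 0 with a filter of 5 CPM (which leaves out Trim46 and Trim47) and 1 with edgeR, and DESeq2 gave 5 for the inhibitor interaction. Leaving out 1 library at a time gave 23 to 25 called members for LPS in WT, 20 to 24 for LPS in KO, 0 to 2 for untreated KO against WT, 3 to 10 for KO against WT with LPS, 0 to 1 for the genotype interaction, 3 to 4 for the inhibitor with LPS, 0 for the inhibitor alone, 23 to 25 for LPS with inhibitor and 2 for the inhibitor interaction.

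Reversals were confined to small falls with LPS, under scalings that move the median of all genes toward 0. After rescaling by the median of ratios, by edgeR and by DESeq2 in turn, Trim44 stood at 0.0108, 0.0336 and 0.0596 for LPS in WT and at 0.0553, 0.0717 and 0.0965 in KO, Trim26 at 0.0168, 0.0362 and 0.0602 in KO, and with inhibitor Trim27 at 0.0156, 0.0418 and 0.0596 and Trim32 at 0.0670, 0.0951 and 0.113. With DESeq2, Trim32 stood at 0.0105 in WT and 0.0102 in KO. With 2 libraries per group, calls of members near 1 CPM (Trim34a, Trim46, Trim47) and of small changes depend on single libraries.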
